A study of Mus musculus with 12 samples.

Results

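The genes described here are p53 target genes in mouse bone marrow, read 6 days after irradiation. They were chosen by symbol. Of 10 genes named, 9 were measured among the 19938 genes of the array, each by a single row: Eda2r, Tnfrsf10b, Polk, Mdm2, Ccng1, Phlda3, Zmat3, Trp53inp1 and Sesn2. Bax was not analysed here. The 12 arrays held RNA of the whole marrow of B6 mice, obtained by flushing long bones, in 4 groups of 3: vehicle and PTH, each in nonirradiated and in irradiated mice. PTH is parathyroid hormone, which builds bone when given intermittently, and it or vehicle was given for 5 days (day 11 to 15). The irradiated groups had received a sub-lethal dose at 10 days of age, split into 2 fractions of 310 cGy. All groups were harvested at 16 days of age. Values are log2 expression, so a difference of 1 is a doubling on the scale of the array.

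p53 is a transcription factor held at a low level in resting cells, chiefly by the ubiquitin ligase Mdm2. DNA breaks activate the kinases Atm and Chek2, p53 is modified and escapes Mdm2, and it binds paired copies of a short half-site near its target genes. Its targets include death receptors, arrest and repair genes, inhibitors of survival signalling, and Mdm2 itself, which closes a negative feedback loop. Bone marrow is among the tissues most sensitive to radiation, and its lymphoid precursors die readily through this pathway.

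Averaged over vehicle and PTH mice, 5 of the 9 measured genes rose after irradiation and 1 fell. Eda2r rose most, 2.11-fold, followed by Polk, Phlda3, Ccng1 and Tnfrsf10b at 1.57-fold to 1.45-fold, while Trp53inp1 fell by 0.52 on the log2 scale. Mdm2, Zmat3 and Sesn2 did not pass the test. The test was limma's moderated linear model with Benjamini-Hochberg adjustment over all 19938 genes, and a gene was called at an adjusted p under 0.05. Over all genes tested, 2.51% were called higher in this averaged comparison and 3.59% were called lower. The median difference of the 9 genes was 0.56, against -0.01 over all genes.

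In vehicle mice alone, 2 of the 9 genes were called higher, Eda2r and Tnfrsf10b, and 0 were called lower, against 1.21% and 1.01% of all genes. In PTH mice alone, 2 were called higher, Eda2r and Polk, and 0 lower, against 0.692% and 1.74% of all genes. Eda2r was the gene called in both. The irradiated arrays lay wholly above the nonirradiated arrays for 5 genes in vehicle mice (8.95% of all genes did) and for 4 genes in PTH mice (8.93% of all genes). They lay wholly below for 1 gene, Trp53inp1, in each treatment, against 9.83% and 10.9% of all genes. With both treatments together, 6 arrays against 6, Eda2r and Polk lay wholly above (1.69% of all genes) and Trp53inp1 wholly below (2.8% of all genes).

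**Figure D1:**
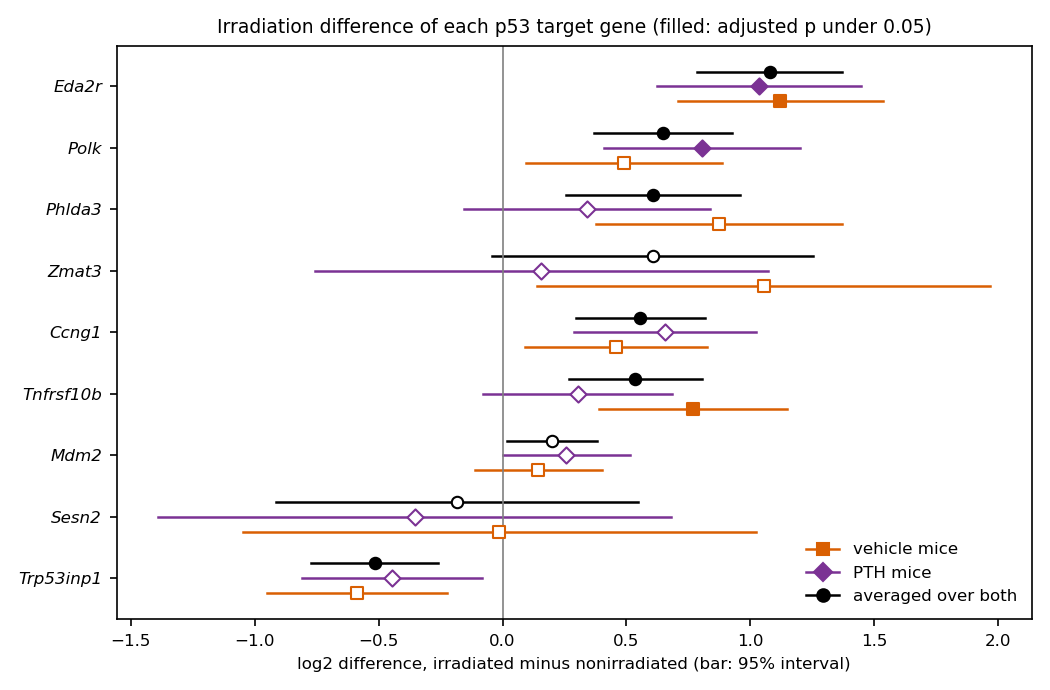
Log2 difference, irradiated minus nonirradiated, of each measured p53 target gene (horizontal axis), in vehicle mice, in PTH mice and averaged over both; bars are 95% intervals from limma, and filled symbols have an adjusted p under 0.05. Eda2r is filled in all 3 comparisons, with estimates of 1.12, 1.03 and 1.08, and Trp53inp1 is the gene filled to the left of 0, at -0.52.

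The arrays differed in sex and in range. Xist and 3 Y-linked genes gave a male pattern in all 3 nonirradiated vehicle arrays and a female pattern in all 3 nonirradiated PTH arrays. In each irradiated group, replicate 1 had the female and replicates 2 and 3 the male pattern. A term for sex was therefore set by the irradiated groups alone, by replicate 1 against replicates 2 and 3. For the nonirradiated groups that estimate was carried over, as sex and treatment cannot be told apart there. The third replicates of the nonirradiated vehicle and irradiated PTH groups had narrower interquartile ranges, 2.86 and 2.88, than the other 10 arrays, at 3.13 to 3.25. No source used here ties an array to 1 mouse or to a pool, so the p-values measure the spread between these samples, which may be technical. A standard error of a difference between 2 groups had a median of 0.17 over all genes, and the number of arrays limits the precision.

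Promoter sequences of the genes are shown because the p53 half-site, a 10-base motif, can be read in some of them. RefSeq windows of assembly GRCm38.p6, from 250 bases before to 50 bases after an annotated start, existed for 7 of the 10 genes, in 8 windows. The half-site consensus is its own reverse complement, so a search of 1 strand covers both. It was found in 4 of the 8 windows, against 8.36% of all 32851 windows of that length. A pair of half-sites at most 13 bases apart, with at most 1 mismatch in each, was found in 1 of the 8, against 2.71% of all windows. The windows of Ccng1, Mdm2, Polk and Eda2r are given in the 5′ to 3′ direction of each gene, with matches in capitals. Ccng1 (chr11:40755237-40755536, minus strand) held the pair, which began 195 bases before the start with no gap and 1 mismatch. Mdm2 (chr10:117710709-117711008, minus strand) held a half-site 186 bases before the start. Polk has 2 windows, and the one shown (chr13:96519138-96519437, minus strand) held a half-site 231 bases before that start. The other Polk window (chr13:96542530-96542829, minus strand) held no match. Eda2r (chrX:97377160-97377459, minus strand), the gene with the largest rise, held none.
Ccng1: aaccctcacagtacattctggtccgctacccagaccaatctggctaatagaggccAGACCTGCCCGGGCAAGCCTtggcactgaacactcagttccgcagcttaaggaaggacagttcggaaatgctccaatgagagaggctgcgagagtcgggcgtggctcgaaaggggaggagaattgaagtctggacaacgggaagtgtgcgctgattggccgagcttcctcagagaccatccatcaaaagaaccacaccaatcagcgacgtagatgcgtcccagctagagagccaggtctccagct
Mdm2: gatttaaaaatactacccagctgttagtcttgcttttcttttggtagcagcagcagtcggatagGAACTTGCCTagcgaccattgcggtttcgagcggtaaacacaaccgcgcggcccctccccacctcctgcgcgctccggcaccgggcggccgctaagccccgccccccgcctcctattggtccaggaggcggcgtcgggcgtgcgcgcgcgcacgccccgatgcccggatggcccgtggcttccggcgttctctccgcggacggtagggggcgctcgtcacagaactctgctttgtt
Polk: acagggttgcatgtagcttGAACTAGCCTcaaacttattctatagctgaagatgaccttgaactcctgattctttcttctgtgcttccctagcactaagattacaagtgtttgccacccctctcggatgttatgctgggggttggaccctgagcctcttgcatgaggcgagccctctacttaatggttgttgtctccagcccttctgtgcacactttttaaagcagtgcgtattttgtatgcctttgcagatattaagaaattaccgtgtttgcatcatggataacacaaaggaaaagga
Eda2r: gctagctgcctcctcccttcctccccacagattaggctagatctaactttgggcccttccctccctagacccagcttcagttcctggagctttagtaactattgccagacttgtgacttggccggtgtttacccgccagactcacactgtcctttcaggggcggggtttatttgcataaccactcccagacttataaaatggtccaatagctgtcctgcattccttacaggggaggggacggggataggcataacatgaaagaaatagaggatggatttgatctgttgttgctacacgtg
The Bax window (chr7:45466849-45467148, minus strand) also held a half-site, AGGCAAGCTT, 201 bases before the start, and the windows of Phlda3 and Sesn2 held none. A match is a match of letters only, and sites outside these windows were not searched.

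Eda2r encodes a receptor of the TNF receptor family that binds the A2 form of ectodysplasin, and it lies on the X chromosome. Its log2 expression was 4.35, 4.82 and 4.98 in the nonirradiated vehicle arrays and 4.63, 4.56 and 4.75 in the nonirradiated PTH arrays. After irradiation it was 5.60, 6.19 and 5.71 in vehicle mice and 5.80, 5.77 and 5.48 in PTH mice. Every irradiated array lay above every nonirradiated array, and within each irradiation state the treatment groups overlapped. In order of group means, Eda2r stood at 4.65 ± 0.09 (SD, n = 3) in nonirradiated PTH, 4.71 ± 0.33 in nonirradiated vehicle, 5.68 ± 0.17 in irradiated PTH and 5.84 ± 0.31 in irradiated vehicle mice. The gap in this order that exceeded the spread lay between the second and the third group. The rise was 1.12 ± 0.19 (SE) in vehicle mice (adjusted p = 0.0082) and 1.03 ± 0.19 in PTH mice (adjusted p = 0.013). Averaged, it was 1.08 ± 0.13 (adjusted p = 4.44e-04, 95% interval of the fold 1.72 to 2.58). Eda2r is a dim gene on this array, its mean lying at percentile 26.8 of all genes.

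Tnfrsf10b encodes the mouse death receptor for the ligand TRAIL. It read 6.01, 6.17 and 5.72 in nonirradiated vehicle arrays and 6.35, 6.24 and 5.92 in nonirradiated PTH arrays. It read 6.95, 6.61 and 6.64 in irradiated vehicle arrays and 6.72, 6.45 and 6.24 in irradiated PTH arrays. The vehicle groups did not overlap, whereas in PTH mice the lowest irradiated array stood within the nonirradiated range. The rise in vehicle mice was 0.77 ± 0.17 (SE, adjusted p = 0.0432), and the difference in PTH mice was 0.30 ± 0.17 (adjusted p = 0.50), or 0.54 with sex as a term (adjusted p = 0.375). The vehicle call held in 3 of 12 fits that each left out an array, with adjusted p from 0.0112 to 0.163 over all alternatives. Averaged, the rise was 0.54 ± 0.12 (adjusted p = 0.0227) and held in 8 of those 12 fits.

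Of 15 ligands, receptors and adaptors of the same families, limma called 0 higher in any irradiation comparison. It called 1 lower, against 3.59% of all genes in the averaged one. The gene called lower was Edaradd, which encodes the adaptor of the related receptor Edar. Edaradd read 6.70, 7.51 and 7.08, then 6.80, 7.10 and 6.86 in the nonirradiated vehicle and PTH arrays, and 6.30, 6.28 and 6.11, then 6.23, 6.45 and 6.76 in the irradiated ones. The groups were apart within each treatment, though irradiated PTH replicate 3, at 6.76, stood above the lowest nonirradiated vehicle array. Edaradd fell by 0.87 on the log2 scale in vehicle mice (limma, adjusted p = 0.043) and by 0.65 averaged over both treatments (adjusted p = 0.0149). The vehicle call held in 3 of 12 fits that left out an array, and the averaged call in all 12. The ligands did not pass: averaged differences were 0.0065 ± 0.10 (SE) for Eda, the ligand of Eda2r, and -0.18 ± 0.13 for Tnfsf10, which encodes TRAIL.

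Polk encodes DNA polymerase kappa, which copies past damaged bases. It read 7.94, 7.69 and 7.59 in nonirradiated vehicle arrays and 7.91, 7.33 and 7.84 in nonirradiated PTH arrays. It read 8.05, 8.24 and 8.40 in irradiated vehicle arrays and 8.52, 8.26 and 8.72 in irradiated PTH arrays. All 6 irradiated arrays lay above all 6 nonirradiated arrays, the closest being 8.05 and 7.94. The rise was 0.80 ± 0.18 (SE) in PTH mice (adjusted p = 0.0399), and the difference was 0.49 ± 0.18 in vehicle mice (adjusted p = 0.24). The PTH call held in 4 of 12 fits that left out an array, with adjusted p from 0.0208 to 0.283 over all alternatives. Averaged, Polk rose by 0.65 ± 0.13 (adjusted p = 0.0097) and held in all 12 of those fits. Among 10 other genes of translesion synthesis, 0 were called by limma in any irradiation comparison. In the averaged one, 1 of the 10 had an unadjusted p under 0.05, against 3443 of all 19938 genes.

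Ccng1 encodes cyclin G1, which is known to act on the Mdm2 loop through a phosphatase subunit. It was a bright gene, at percentile 98.3 of all genes. It read 11.06, 10.57 and 10.80, then 10.77, 10.46 and 10.91 in the nonirradiated vehicle and PTH arrays. It read 11.03, 11.41 and 11.36, then 11.31, 11.26 and 11.54 in the irradiated vehicle and PTH arrays. Irradiated vehicle replicate 1, at 11.03, fell just under the highest nonirradiated array, and the other 5 irradiated arrays stood above all nonirradiated ones. The difference was 0.46 ± 0.17 (SE) in vehicle mice (adjusted p = 0.24) and 0.66 ± 0.17 in PTH mice (adjusted p = 0.0727). Averaged, Ccng1 rose by 0.56 ± 0.12 (adjusted p = 0.0159), and this held in 11 of 12 fits that left out an array.

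Mdm2, the ubiquitin ligase that degrades p53, read 9.17, 9.18 and 8.89, then 9.16, 9.0 and 8.93 in the nonirradiated vehicle and PTH arrays. It read 9.19, 9.31 and 9.18, then 9.33, 9.28 and 9.25 in the irradiated vehicle and PTH arrays. The irradiated arrays sat at or just above the top of the nonirradiated range. The averaged difference was 0.20 ± 0.08 (SE, adjusted p = 0.227), with a 95% interval from 0.02 to 0.38, and Mdm2 was called in none of the alternatives run. Of 14 measured regulators and damage-signalling genes, Mdm4, Atm and Chek2 among them, limma called 0 in the irradiation comparisons. Against 3443 of all 19938 genes, 1 of the 14 had an unadjusted p under 0.05 in the averaged one. That gene was Atm, at -0.39 ± 0.11 (adjusted p = 0.0525), singled out after its value was seen. The gene of p53 itself was not analysed here.

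**Figure D2:**
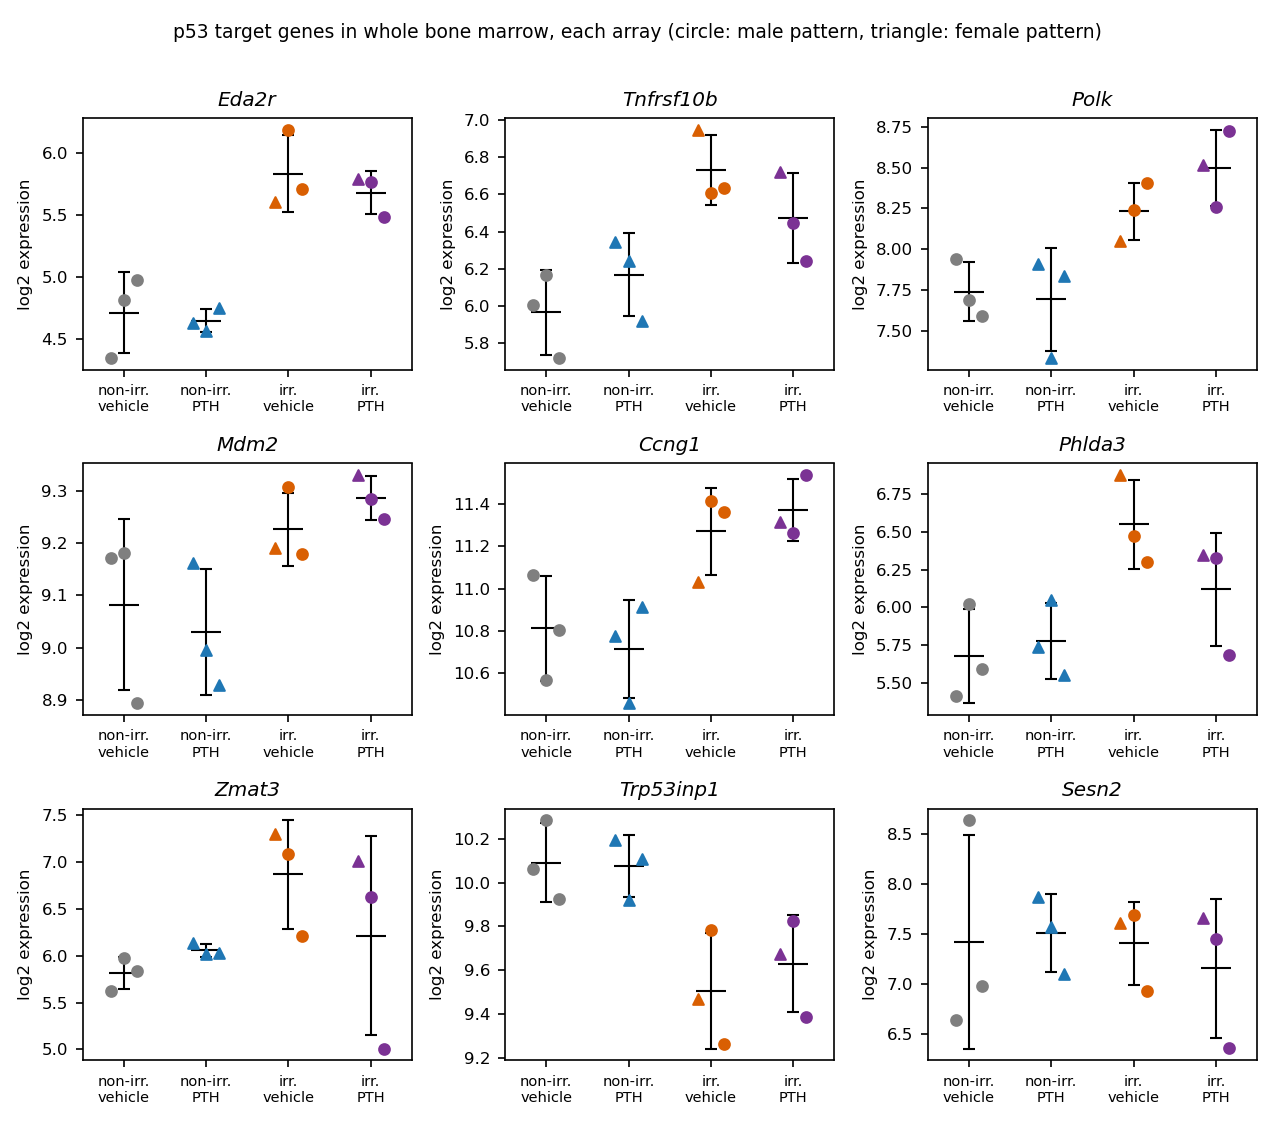
Log2 expression (vertical axes, each with its own range) of the 9 measured p53 target genes on each array, in 4 groups of 3; circles have the male and triangles the female pattern of Xist and Y-linked genes, and bars show the mean ± SD. Eda2r and Polk stand apart between irradiated and nonirradiated arrays, Trp53inp1 is lower in all 6 irradiated arrays, and the lowest irradiated PTH array of Zmat3 reads 5.01.

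Phlda3 encodes a small protein with a membrane-binding domain that restrains the survival kinase Akt. It read 5.41, 6.02 and 5.59, then 5.73, 6.05 and 5.55 in the nonirradiated vehicle and PTH arrays. It read 6.88, 6.47 and 6.30 in irradiated vehicle arrays and 6.35, 6.32 and 5.69 in irradiated PTH arrays. All irradiated arrays except PTH replicate 3, at 5.69, were above the nonirradiated arrays. The difference was 0.87 ± 0.23 (SE) in vehicle mice (adjusted p = 0.0787) and 0.34 ± 0.23 in PTH mice (adjusted p = 0.558). Without irradiated PTH replicate 3, Phlda3 passed in vehicle mice (adjusted p = 0.0279), at an unchanged 0.87 with a smaller SE of 0.19. In vehicle mice it was called in 1 of 12 fits that left out an array. The difference in PTH mice was 0.56 without irradiated PTH replicate 3 (adjusted p = 0.343), and 0.62 with sex as a term (adjusted p = 0.547). Averaged, Phlda3 rose by 0.61 ± 0.16 (adjusted p = 0.0462). That call held in 3 of 12 fits that left out an array.

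Zmat3 encodes an RNA-binding zinc finger protein that acts in growth suppression. It read 5.63, 5.98 and 5.84, then 6.14, 6.01 and 6.03 in the nonirradiated vehicle and PTH arrays, a narrow range. It read 7.31, 7.09 and 6.21 in irradiated vehicle arrays and 7.01, 6.63 and 5.01 in irradiated PTH arrays. Of the 6 irradiated arrays 5 were above all nonirradiated ones, and irradiated PTH replicate 3 was below all of them. The difference was 1.05 ± 0.42 (SE) in vehicle mice (adjusted p = 0.287), 0.16 ± 0.42 in PTH mice (adjusted p = 0.911) and 0.61 ± 0.30 averaged (adjusted p = 0.33). Without irradiated PTH replicate 3 the averaged difference was 0.91 ± 0.18 and passed (limma, adjusted p = 0.00843). The vehicle groups do not hold that array. Their difference stayed at 1.05, with a smaller SE of 0.24, and then passed (adjusted p = 0.0294). In each of these comparisons Zmat3 was called in 1 of 12 fits that left out an array. With sex as a term the averaged difference was 0.76 (adjusted p = 0.134). The difference in PTH mice was 0.76 without irradiated PTH replicate 3 (adjusted p = 0.251), and 0.77 with sex as a term (adjusted p = 0.861).

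Trp53inp1 went the opposite way. It encodes a nuclear and autophagy-related protein that promotes p53's death programme. It read 10.06, 10.29 and 9.93, then 10.20, 9.92 and 10.11 in the nonirradiated vehicle and PTH arrays. It read 9.47, 9.78 and 9.26, then 9.67, 9.82 and 9.39 in the irradiated ones. Every irradiated array lay below every nonirradiated array, the closest being 9.82 and 9.92. The difference was -0.59 ± 0.17 (SE) in vehicle mice (adjusted p = 0.106) and -0.45 ± 0.17 in PTH mice (adjusted p = 0.246). Averaged, Trp53inp1 fell by 0.52 ± 0.12 (adjusted p = 0.0208), a call that held in 8 of 12 fits that left out an array.

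Sesn2 encodes a stress-induced protein that restrains the growth kinase complex mTORC1. It read 6.65, 8.64 and 6.98 in nonirradiated vehicle arrays, 7.87, 7.57 and 7.10 in nonirradiated PTH arrays, 7.61, 7.69 and 6.93 in irradiated vehicle arrays and 7.66, 7.45 and 6.36 in irradiated PTH arrays. The groups overlapped throughout, and nonirradiated vehicle replicate 2, at 8.64, was the highest array. The averaged difference was -0.18 ± 0.34 (SE, adjusted p = 0.873), with a 95% interval from -0.92 to 0.55. Sesn2 had the widest interval of the 9 genes.

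None of the 9 genes passed the test between PTH and vehicle. In irradiated mice, limma called 0 of them between PTH and vehicle, and 0 of the 9 had an unadjusted p under 0.05; of all genes, 0% were called and 759 had an unadjusted p under 0.05. In nonirradiated mice, too, limma called 0 of the 9 and 0% of all genes, with 0 and 356 at an unadjusted p under 0.05. For Eda2r the PTH difference in irradiated mice was -0.15, with a 95% interval from -0.57 to 0.26. For Polk it was 0.27 (-0.13 to 0.66). The largest in size were -0.65 for Zmat3 (-1.57 to 0.26) and -0.43 for Phlda3 (-0.93 to 0.07). The interaction, which asks whether the response to irradiation differed between vehicle and PTH mice, was called for 0 of the 9 genes and 0% of all genes, and 1094 genes had an unadjusted p under 0.05. It was -0.09 for Eda2r (-0.67 to 0.50), -0.47 for Tnfrsf10b (-1.0 to 0.07) and 0.31 for Polk (-0.24 to 0.87). The largest in size were -0.90 for Zmat3 (-2.19 to 0.395) and -0.53 for Phlda3 (-1.23 to 0.17). The nonirradiated vehicle arrays were all of the male and the nonirradiated PTH arrays all of the female pattern. With sex as a term, estimated from the irradiated groups alone, the interaction was -0.11 for Tnfrsf10b and 0.19 for Polk. In that fit it was -0.12 for Phlda3 and 0.02 for Zmat3. The calls of Tnfrsf10b in vehicle mice alone and of Polk in PTH mice alone are therefore not shown to differ between the treatments.

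Sex and the narrow arrays touched these values as follows. Among male-pattern arrays, 4 irradiated against 3 nonirradiated, Eda2r, Tnfrsf10b, Polk and Ccng1 lay wholly above (4.03% of all genes did) and Trp53inp1 wholly below (6.52% of all genes). Among female-pattern arrays, 2 irradiated against 3 nonirradiated, 7 of the 9 genes lay wholly above (16.4% of all genes), Trp53inp1 wholly below (12.9% of all genes), and Sesn2 overlapped. The difference of Eda2r was 1.07 in male-pattern and 1.05 in female-pattern arrays. With sex as a term, limma called the same 6 genes in the averaged comparison, 1 gene (Eda2r) in vehicle mice and 0 in PTH mice, where Eda2r stood at 0.98 ± 0.24 (SE, adjusted p = 0.111). In the fit of male-pattern arrays alone, both irradiated groups were set against nonirradiated vehicle, as no nonirradiated PTH array had that pattern. There 0 of the 9 genes passed, Eda2r having an adjusted p of 0.0693. Irradiated PTH replicate 3 was the lowest of its group for 7 of the 9 genes and the highest for Polk and Ccng1.

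The RNA levels of some cell type markers in the marrow shifted with irradiation. In the averaged comparison, 2.51% of all genes were called higher and 3.59% lower. Of 13 B lineage markers, 11 were called lower in the averaged comparison and 0 higher, and their mean level went from 9.07 to 9.47 over the nonirradiated arrays to 6.81 to 7.46 over the irradiated ones. Of 9 adipocyte markers, 8 were called higher and 0 lower, with mean levels of 7.12 to 7.44 and 7.89 to 8.55. T and NK cell markers were called lower for 4 of 8, with mean levels of 6.82 to 7.36 without and 6.43 to 6.78 with irradiation. Among these 8, 2 had a positive difference. Megakaryocyte markers were called lower for 4 of 6 (9.21 to 9.79, then 8.54 to 9.09), and monocyte and macrophage markers higher for 3 of 10 (8.42 to 8.81, then 8.46 to 9.14). These last ranges overlapped, and 4 of the 10 had a negative difference. Called lower were 2 of 8 stem and progenitor, 1 of 12 neutrophil and 1 of 7 erythroid markers. Of the 12 neutrophil markers, 6 had a positive and 6 a negative difference. Endothelial markers were called higher for 1 of 7, and stromal and osteoblast markers for 0 of 8. Of the 13 measured cell cycle genes 0 were called in any irradiation comparison, and 0 had an unadjusted p under 0.05 in the averaged one (limma). In whole marrow, fewer cells of a type and less RNA per cell cannot be told apart. The part of these shifts in the values of the p53 target genes was not tested.

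A list of 26 other p53 targets was read beside these genes, of which 24 were measured. In vehicle and in PTH mice alone, limma called 0 of the 24. At an unadjusted p under 0.05 were 4 and 5 of them, against 2648 and 2678 of all 19938 genes. Averaged over both treatments, 3 rose and 2 fell, against 2.51% and 3.59% of all genes. The median difference was 0.04, against -0.01 over all genes. The gene of the arrest protein p21, Cdkn1a, shares its row with another symbol and was not analysed here. Pmaip1 and Bbc3, which encode the death activators Noxa and Puma, had averaged differences of 0.16 ± 0.16 (SE) and 0.09 ± 0.11, neither past the test.

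Of the 3 that rose, Perp encodes a membrane protein of cell junctions that acts in p53-dependent death. Perp read 5.94, 5.81 and 5.30, then 5.82, 6.10 and 5.69 without irradiation, and 6.25, 6.82 and 6.71, then 6.24, 6.82 and 6.37 with it. All irradiated arrays were higher, and Perp rose by 0.76 ± 0.15 (SE, limma adjusted p = 0.0109). Rps27l, which encodes a ribosomal protein relative, lay wholly apart in the same way and rose by 0.80 ± 0.20 (adjusted p = 0.04). Of its promoter windows, the one at chr9:66946163-66946462 (plus strand) held the pair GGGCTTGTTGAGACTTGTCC, with 1 mismatch, 117 bases before that start. The one at chr9:66945836-66946135 held no match. Over the other p53 targets, 4 of 32 windows held a pair, against 2.71% of all windows. Windows of Gtse1 and Pml, which were not called, were among the 4. Aen, which encodes a nuclease of dying cells, rose by 0.39 ± 0.10 (adjusted p = 0.0414). Its groups were apart in PTH mice and overlapped in vehicle mice, where irradiated replicate 3 read 6.26.

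Rrm2b, which encodes a ribonucleotide reductase subunit that supplies nucleotides for repair, fell. It read 9.48, 9.01 and 8.67, then 8.80, 8.57 and 9.28 without irradiation, and 8.09, 8.21 and 8.34, then 8.21, 8.21 and 8.31 with it. All irradiated arrays were lower, and Rrm2b fell by 0.74 ± 0.15 on average (SE, adjusted p = 0.0104). Fas, the death receptor, had a difference of -0.36 ± 0.10 (adjusted p = 0.0445). Perp and Rrm2b were called in all 12 fits that left out an array, Rps27l in 4, and Aen and Fas in 1 each.

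**Figure D3:**
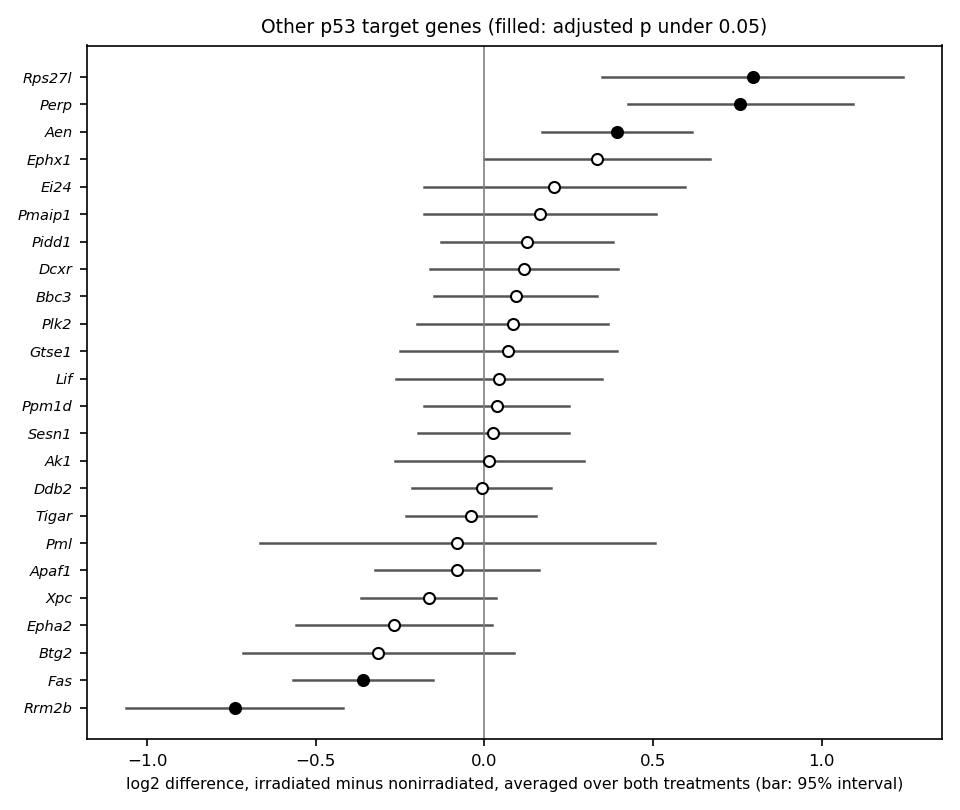
Log2 difference, irradiated minus nonirradiated and averaged over both treatments (horizontal axis), of 24 other p53 target genes; bars are 95% intervals from limma and filled points have an adjusted p under 0.05. Rps27l, Perp and Aen are filled to the right of 0 and Fas and Rrm2b to the left, and the other 19 points are open.

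Of 11 measured genes of the BCL-2 family, to which Bax belongs, 1 rose and 2 fell in the averaged comparison. Among all genes, 2.51% were called higher and 3.59% lower in it. Bcl2l1, which encodes the survival protein BCL-XL, read 9.32, 9.45 and 8.86, then 9.44, 9.34 and 9.41 without irradiation, and 9.60, 9.89 and 9.67, then 9.98, 10.24 and 9.61 with it. All irradiated arrays were higher, and it rose by 0.53 ± 0.13 (SE, limma adjusted p = 0.0309). Bcl2l11, which encodes the death activator BIM, fell by 0.54 (adjusted p = 0.0037) and Bmf, another activator, by 0.56 (adjusted p = 0.0415). Both lay wholly lower after irradiation. Bcl2l11 was also called in PTH mice alone, at -0.58 ± 0.13 (adjusted p = 0.0384), a call that held in 3 of 12 fits that left out an array. The averaged calls held in all 12 such fits for Bcl2l11, in 4 for Bcl2l1 and in 3 for Bmf.

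Within groups the genes did not vary as 1 block. Pearson's r of the deviations from the group means, over the 12 arrays, is given as a description. Whether these arrays were normalized together is not known. Polk and Ccng1 went together (r = 0.81), and Phlda3 went with Sesn2 (0.82), Zmat3 (0.77) and Tnfrsf10b (0.73). Polk and Ccng1 ran opposite to Phlda3: r was -0.92 for Ccng1 with Phlda3 and -0.76 for Polk with Phlda3. With Sesn2, Zmat3 and Tnfrsf10b their r was negative but weaker. It ran from -0.68 for Ccng1 with Sesn2 to -0.21 for Polk with Tnfrsf10b. The latter was -0.02 without irradiated PTH replicate 3. For Eda2r, r was -0.25 with Polk, -0.08 with Ccng1, -0.24 with Tnfrsf10b and 0.20 with Phlda3, against 0.43 with both Zmat3 and Sesn2 and 0.51 with Trp53inp1. Without irradiated PTH replicate 3, r was 0.78 for Polk with Ccng1, -0.95 for Ccng1 with Phlda3 and 0.61 for Phlda3 with Zmat3.

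**Figure D4:**
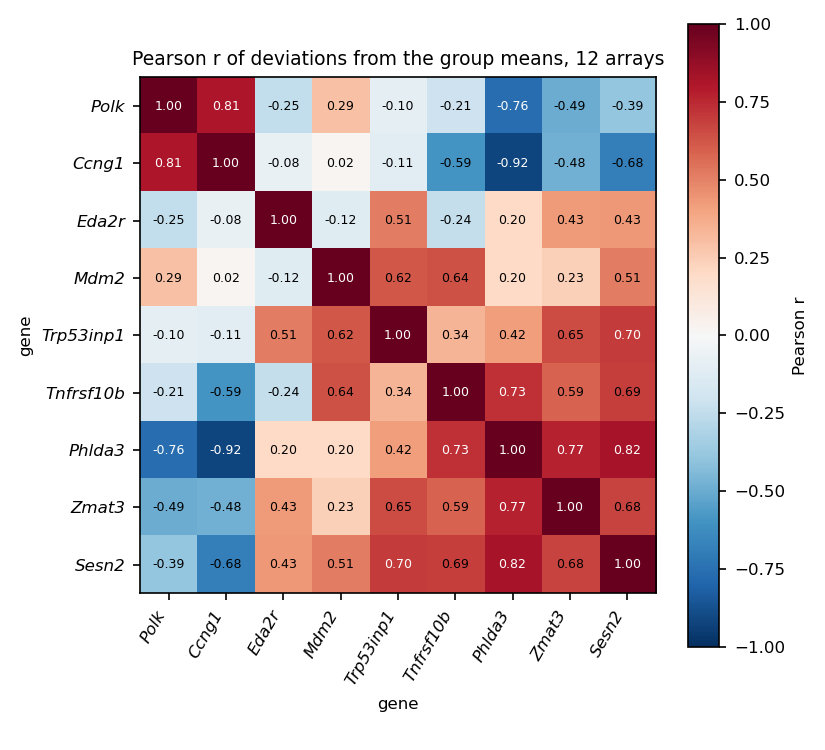
Pearson's r between the measured p53 target genes (both axes), computed over 12 arrays from each array's deviation from its group mean; red is positive and blue negative, as the colour bar gives. Polk and Ccng1 form a positive pair (0.81), and both are negative with Phlda3 (-0.76 and -0.92).

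The genes whose levels over the 12 arrays were most like those of Eda2r, by Pearson's r, were Ifi205 (0.95), Bmp2k (0.94), Rfk (0.93), Igfbp2 (0.93) and Serpina3n (0.93). All were higher after irradiation in both treatments, and a gene with the same group difference reaches a high r in this design. Ifi205, an interferon-inducible gene, rose by 2.76 on average and Serpina3n, a serine protease inhibitor of the acute phase, by 3.89, against 1.08 for Eda2r. Within groups, r with Eda2r was 0.36 for Ifi205 and 0.04 for Serpina3n, against 0.82 for Bmp2k, a kinase gene that rose by 0.41 (limma, adjusted p = 0.0187).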

How the data were processed

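The authors' deposited value table holds log2 expression, a scale read from the values and from RMA, which the submitters' processing notes name with affy and limma, without versions or roles. Per the labels' protocols, 100 ng of total RNA per array was amplified into biotinylated cDNA. The genome build, and whether all arrays were normalized together, are not given in the sources used here. Of 35556 rows, 21789 had 1 gene symbol, 1621 several and 12146 were not named; the row with the highest mean was taken for the 999 genes with several. The linear model (limma 3.58.1, lmFit and eBayes, R 4.3.3) took all 12 arrays as 4 group means with 8 residual degrees of freedom, and the fit was tested on simulated data. Genes and lists were chosen with earlier results of these data known: each measured target gene is named, as is each gene of a pathway list called after irradiation (at most 6 a list), relatives of a target gene, and the 5 genes most like Eda2r (leaving out olfactory and antigen receptor genes, small RNAs and predicted genes).

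Replicate numbers are shared by all groups. Deviations of same-numbered arrays correlated at 0.14 to 0.57 between the irradiated groups, against -0.51 to 0.40 for unlike numbers. Between the vehicle groups they correlated at -0.65 to 0.21, against -0.55 to 0.63 for unlike numbers. Between the PTH groups the values were -0.04 to 0.45 and -0.43 to 0.29. The ranges overlap and replicate 1 of both irradiated groups is female, so whether the numbers pair the arrays cannot be told. With the replicate block in the irradiated groups alone, 0 of the 9 genes were called between PTH and vehicle, as without it. Other settings tried were array weights, a trended robust variance, 2 scalings, dim genes left out, the mean of all rows, the replicate block, sex as a term, and fewer arrays. Of these, the fit of male-pattern arrays and the block within irradiated groups were chosen after seeing the data.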

Additional observations from a re-analysis of the deposited data

How the results depend on the processing

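Eda2r was called in vehicle mice under all alternatives run. In the averaged comparison it was called in all fits that held the 4 groups. It was not called in male-pattern arrays alone, a fit of both irradiated groups against nonirradiated vehicle. In PTH mice Eda2r was lost in 3 of 12 fits that left out an array and with sex as a term. The count of genes called was less stable. In vehicle mice it was 2, and 5 with array weights. It was 1 with sex as a term, without both narrow arrays and with only the groups compared, and 1 to 4 with an array left out, 4 without irradiated PTH replicate 3. In PTH mice it was 2. With sex as a term it was 0. It was 1 with a trend and robust variance, with arrays centred on housekeeping genes, without both narrow arrays and with only the groups compared, and 0 to 2 with an array left out. Averaged, it was 6, and 3 to 7 with an array left out, 3 without nonirradiated PTH replicate 3. In male-pattern arrays alone, which lack the nonirradiated PTH group, it was 0, and 153 of all genes were called there. Of the other p53 targets, 5 were called, 3 with housekeeping centring and without both narrow arrays, 0 in male-pattern arrays alone, and 2 to 4 with an array left out. The cause of these changes was not tested. Housekeeping centring moved the median of all genes in vehicle mice from -0.03 to -0.15, and the calls from 241 higher and 201 lower to 193 and 373. Array weights raised the calls over all genes from 442 to 1149 in vehicle mice, 485 to 1148 in PTH mice and 1216 to 2517 averaged.

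Values that changed sign were never called. Sesn2 in PTH mice was 0.0426 without both narrow arrays and the interaction of Zmat3 was 0.0245 with sex as a term. With an array left out, Sesn2 ranged from -0.40 to 0.59 in vehicle mice, -0.61 to 0.0426 in PTH mice and -0.38 to 0.12 averaged, and Zmat3 from -0.24 to 0.76 in PTH mice. With the replicate block, 3 genes were called in vehicle mice, 2 in PTH mice and 6 averaged. The deposited values hold no detection calls, so whether the dim gene Eda2r stood above background on nonirradiated arrays was not tested.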
